A study of Mus musculus with 35 samples.

Results

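The translation initiation factor genes of the mouse were examined as one set of 40: the 3 subunits of eIF2, the 5 of eIF2B, 13 subunits of eIF3, 9 genes of the eIF4 group, 3 of the eIF1 group and Eif5, Eif5b and Eif6. The last 4, Eif2a, Pabpc1, Denr and Mcts1, are of neighbouring function. The genes were listed by name, with earlier results of these data known, and were matched through their Ensembl identifiers. All 40 were found among the 55487 genes of both count tables. The cells were MLL-AF9 acute myeloid leukemia cells that carried GFP, expanded in culture from a single terminally ill mouse. They were given a guide RNA against Ogfod1 (sgOgfod1) or a scrambled guide (sgScramble) and transplanted into male mice of 8 to 10 weeks. Treated mice received a diet free of branched-chain amino acids (BCAA) together with the 5+3 chemotherapy regimen, which is cytarabine at 100 mg/kg daily for 5 days with doxorubicin at 3 mg/kg on the first 3 of them. Vehicle mice were kept on an amino acid diet (AA) and received PBS. Cells with GFP were sorted out of the bone marrow at the time of the greatest response to chemotherapy. The 4 groups were treated sgOgfod1 (6 RNA and 2 footprint libraries), vehicle sgOgfod1 (5 and 3), treated sgScramble (7 and 4) and vehicle sgScramble (5 and 3), with 1 mouse behind each library. Diet and chemotherapy were changed together, so their parts in any difference cannot be told apart, and all cells descend from 1 leukemia. Poly(A) RNA was read by Smart-seq2 and ribosome-protected fragments (footprints) by ribosome profiling, which shows where ribosomes sit on mRNA. Both came from the same mouse in 12 cases.

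Initiation begins when eIF2, bound to GTP and the initiator tRNA, joins the small ribosomal subunit together with eIF1, eIF1A, eIF3 and eIF5. The eIF4 factors bind the mRNA cap and unwind the leader so that this complex can scan to a start codon, where GTP is hydrolysed and eIF5B brings in the large subunit. The exchange factor eIF2B then reloads eIF2 with GTP, and phosphorylated eIF2 alpha blocks that step when amino acids are scarce or proteins misfold, a control point known as the integrated stress response.

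The start sites of 8 members are shown because these genes carry the results below or because start-codon choice is the step their products act on. Each window is read 5′ to 3′ from the GENCODE M21 transcripts of GRCm38, and capitals mark the base at position -3, the start codon and the base at position 4, counted from the first base of the start codon.
Eif1: gaatcgtatCgtATGTccgctatccagaac
Eif1b: cactagtgtCgcATGTccactatccagaac
Eif5: taataagccAaaATGTctgtcaacgtcaac
Eif2s2: cgaactacaGccATGTccggggacgagatg
Eif2s3x: tctccgagcAagATGGctgggggtgagggt
Eif3a: cgtaccgtcAagATGCcggcctatttccag
Eif3e: tcccccggcAagATGGcggagtacgacctg
Eif4g2: caagccgccAaaGTGGagagtgcgattgca
The start codons lie at chr11:100320130-100320132 (plus strand) for Eif1, chr9:120492811-120492813 (plus strand) for Eif1b, chr12:111539616-111539618 (plus strand) for Eif5, chr2:154892702-154892704 (minus strand) for Eif2s2, chrX:94212631-94212633 (minus strand) for Eif2s3x, chr19:60790515-60790517 (minus strand) for Eif3a, chr15:43282690-43282692 (minus strand) for Eif3e and chr7:111081545-111081547 (minus strand) for Eif4g2. Eif1 and its close copy Eif1b had C at -3 and T after the start codon, where most genes have a purine and often a G. Eif4g2, a relative of eIF4G that does not bind the cap-binding protein, is annotated to start at GTG. A purine at -3 was present in 32 of the 38 members with an annotated start (84.2%), against 84.5% of 19239 protein-coding genes, and G at position 4 in 18 (47.4%), against 49.5%.

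Promoter windows around the motif CACGTG, the E-box bound by MYC and related factors, are shown for the 4 members with that motif on which a footprint result below turns or whose product binds the cap. The windows come from the RefSeq promoter table of GRCm38.p6, which covers 250 bases before to 50 after each start, and capitals mark the motif, which reads the same on both strands.
Eif3a: ccgcgagggaatCACGTGgttccttccttt
Eif4g1 first: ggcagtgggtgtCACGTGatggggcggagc
Eif4g1 second: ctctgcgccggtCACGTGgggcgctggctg
Eif3k: ctggaaggaaatCACGTGgtagacaaaaaa
Eif4e first: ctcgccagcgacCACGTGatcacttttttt
Eif4e second: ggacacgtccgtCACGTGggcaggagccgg
They lie at chr19:60790654-60790683 (minus strand) for the site of Eif3a, chr16:20672661-20672690 (plus strand) for the first site of Eif4g1, chr16:20672730-20672759 (plus strand) for the second site of Eif4g1, chr7:28981915-28981944 (minus strand) for the site of Eif3k, chr3:138527028-138527057 (plus strand) for the first site of Eif4e and chr3:138527192-138527221 (plus strand) for the second site of Eif4e. CACGTG stood in 8 of the 33 members with a promoter entry (24.2%; Eif1b, Eif3a, Eif3f, Eif3k, Eif4a1, Eif4e, Eif4g1 and Eif4h), against 8.09% of 27025 genes. The amino acid response element TGATGCAA, searched on both strands, was in 0 of 33 members and in 1.03% of genes. Of the 8 members with the E-box, 5 passed no test in the comparisons below. The matches describe the letters of the windows alone.

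Library totals were 31921768 to 142694163 counts for RNA (23 libraries) and 5705585 to 14642692 counts for footprints (12 libraries). The 40 genes held 1.01% of the RNA counts and 0.571% of the footprint counts. The smallest count of any member in any library was 432 for RNA (Eif2s3x) and 80 for footprints (Eif2b4), and all 40 passed the filter on low counts in both assays. The guide against Ogfod1, whose product hydroxylates a protein of the small ribosomal subunit, was seen in the target's own footprints. They were at 2.91 and 1.44 CPM (counts relative to the library total) in treated sgOgfod1 and 2.62, 2.98 and 1.67 CPM in vehicle sgOgfod1, against 14.4, 15.6, 12.4 and 17.5 CPM in treated sgScramble, with vehicle sgScramble at 13.7, 14.5 and 15.5 CPM. Ogfod1 RNA was 3.75 to 13.0 CPM over all sgOgfod1 libraries, against 12.3 to 31.6 CPM over all sgScramble libraries. Summed neutrophil markers were higher after treatment, at 15319 to 53222 RNA CPM in treated sgScramble, against 6538 to 12610 in vehicle sgScramble, with 9 of 11 markers called. The RNA of 11 of 12 macrophage markers was also called higher, and they summed to 600.4 to 5092 CPM in treated sgScramble, with the highest value in replicate 4, against 556 to 744 CPM in vehicle sgScramble. The 9 leukemia markers summed to 2661 to 6952 RNA CPM in treated sgScramble, against 3342 to 3982 CPM in vehicle sgScramble, with 1 called higher and 2 lower (2 and 3 in footprints). Footprints of neutrophil markers summed to 8210 to 18209 CPM in treated sgScramble, against 4882 to 5463 CPM in vehicle sgScramble. For macrophage markers the footprint sums were 160.5 to 244 CPM in treated sgScramble, against 149 to 161 CPM in vehicle sgScramble. Called higher in footprints were 8 of 11 neutrophil and 7 of 9 tested macrophage markers, the macrophage ones with a median log2 fold change of 3.17. Erythroid, B-cell, T- and NK-cell and stromal marker sums stayed at or below 141 RNA CPM in every library. The part of cell makeup in the differences below was not tested, and in these bulk samples fewer cells of a type and less RNA per cell cannot be told apart. Libraries numbered 17 or higher were all treated, which the labels do not describe as a batch. Of the RNA libraries 2, treated sgScramble replicate 4 and treated sgOgfod1 replicate 3, stood apart, with median correlations to the other libraries of their group of 0.903 and 0.927, where the others had 0.950 to 0.978 (log2 CPM over genes).

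In sgScramble cells every initiation factor gene that passed the test was higher after treatment, in RNA and in footprints. RNA of 8 of the 40 genes was called higher in treated than in vehicle sgScramble and of 0 lower by edgeR's quasi-likelihood test (adjusted p below 0.05 over all genes tested). The background was 8.6% of all 21474 genes tested called higher, and 11.1% of the protein-coding ones. The 8 were Eif1, Eif2s2, Eif2b3, Eif2b5, Eif3b, Eif5, Eif6 and Denr. In footprints 13 of the 40 were called higher and 0 lower, where 8.12% of 18290 genes tested were called higher and 6.23% of the protein-coding ones. The 13 were Eif1, Eif1ax, all 3 eIF2 subunits, Eif2b3, Eif3a, Eif3e, Eif3h, Eif4g1, Eif5, Eif5b and Denr. By direction alone, 33 of 40 were above 0 in RNA (49.5% of all genes) and 38 of 40 in footprints (48.7% of all genes). The members' median log2 fold change was 0.22 in RNA and 0.26 in footprints, with -0.01 over all genes in each assay. For 21 of the 40 the footprint ranges of treated and vehicle sgScramble libraries did not overlap, as for 31.2% of all genes tested. Of the 8 RNA calls 5 were also footprint calls (62.5% of the 8 and 38.5% of the 13): Eif1, Eif2s2, Eif2b3, Eif5 and Denr. The RNA count came to 3, 3, 1, 3 and 2 without vehicle sgScramble replicates 1 to 5 in that order, to 3, 3 and 5 without treated sgScramble replicates 4, 6 and 7, and to 13 without treated sgOgfod1 replicate 3. It was 12 without both libraries that stood apart and 0 with a term for library numbers from 17 up. The footprint count came to 6, 4 and 7 without vehicle sgScramble replicates 2, 3 and 5 and to 6 with that term.

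**Figure D1:**
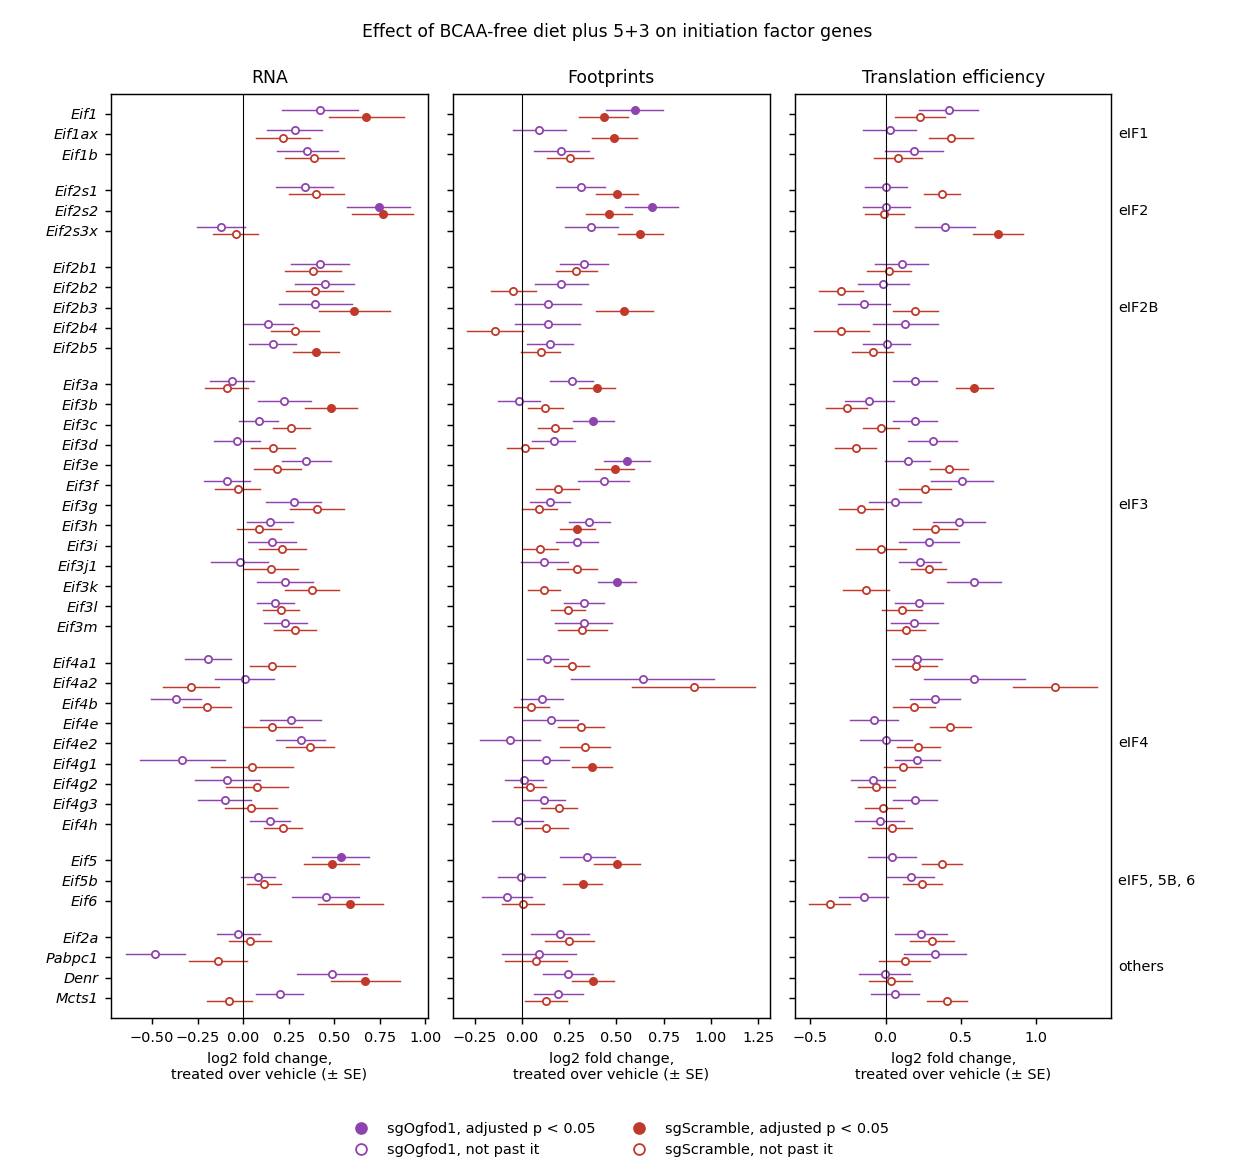
Log2 fold change, treated over vehicle, of each of the 40 genes in RNA, footprints and translation efficiency, with 1 SE on each side. Purple marks sgOgfod1 and red sgScramble, and filled points passed adjusted p below 0.05. In sgScramble 8 genes are filled for RNA, 13 for footprints and 2 for translation efficiency, all to the right of 0.

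All 3 subunits of eIF2 had more footprints after treatment, and 1 of them more RNA. Eif2s2 (ENSMUSG00000074656, chr2:154871410-154892935, minus strand) encodes eIF2 beta, which holds the contacts to eIF5 and eIF2B. Its RNA was at 124 to 231 (median 155) CPM in treated sgScramble, against 79.1, 110.5, 87.6, 90.5 and 111 CPM in vehicle sgScramble. No treated library was as low as the highest vehicle library, and the log2 fold change was 0.77 ± 0.17 (SE), adjusted p = 0.00400 by edgeR's test. Its footprints were at 109, 111, 118 and 155 CPM in treated sgScramble, against 90.3, 91.2 and 87.3 CPM in vehicle sgScramble, again without overlap. The log2 fold change was 0.46 ± 0.12 (SE), adjusted p = 0.0181 by edgeR. Eif2s1 (ENSMUSG00000021116, chr12:78861819-78887010, plus strand) encodes eIF2 alpha, the subunit phosphorylated in the integrated stress response. Footprints of Eif2s1 were at 149, 145, 165 and 187 CPM in treated sgScramble, against 117, 107 and 118 CPM in vehicle sgScramble. All 4 treated libraries exceeded the 3 vehicle libraries, with a log2 fold change of 0.50 ± 0.11 (SE), adjusted p = 0.00642 in edgeR, or 1.42-fold. The RNA of Eif2s1 was at 283 to 514 (median 363) CPM in treated sgScramble, against 261, 309, 249, 255 and 276 CPM in vehicle sgScramble. The log2 fold change of 0.40 ± 0.15 did not pass (edgeR adjusted p = 0.0858). Eif2s3x (ENSMUSG00000035150, chrX:94188707-94212862, minus strand) encodes eIF2 gamma, which binds GTP and the initiator tRNA. Eif2s3x footprints were at 102, 118, 113 and 138 CPM in treated sgScramble, against 77.6, 74.9 and 75.8 CPM in vehicle sgScramble. By edgeR's test the log2 fold change was 0.63 ± 0.12 (SE), adjusted p = 0.00295. Here too the groups were apart. The RNA was at 12.2 to 16.7 (median 13.8) CPM in treated sgScramble, against 12.7, 17.5, 15.0, 14.0 and 12.8 CPM in vehicle sgScramble. These values overlapped, with a log2 fold change of -0.04 ± 0.13 (adjusted p = 0.878). Summed over the 3 genes, footprints were 360.3, 374, 396 and 479.9 CPM in treated sgScramble, against 285, 273 and 281 CPM in vehicle sgScramble. The 2 treated libraries numbered below 17, like every vehicle library, held 102 and 118 footprint CPM of Eif2s3x and 124 and 141 RNA CPM of Eif2s2, each above all vehicle values. With a term for library numbers the call of Eif2s3x held, while those of Eif2s2 in RNA and footprints (edgeR adjusted p = 0.132 and 0.165) and Eif2s1 (0.0669) did not. Without vehicle sgScramble replicate 2, 3 or 5 the footprint call of Eif2s2 was also lost.

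Of the 5 eIF2B subunits, 2 passed the test in RNA and 1 in footprints. All 5 had a positive RNA log2 fold change between 0.28 and 0.61 (median 0.39), and in footprints 3 of 5 were positive with a median of 0.10. Eif2b3 (ENSMUSG00000028683, chr4:117019402-117087306, plus strand) is the gamma subunit that forms the catalytic pair with epsilon. Its RNA was at 73.3 to 153 (median 85.5) CPM in treated sgScramble, against 70.0, 58.9, 55.5, 60.4 and 65.2 CPM in vehicle sgScramble. Its log2 fold change came to 0.61 ± 0.20 (SE), adjusted p = 0.0402 in edgeR. Its footprints were at 32.01, 24.9, 24.1 and 28.5 CPM in treated sgScramble, against 18.6, 18.4 and 19.5 CPM in vehicle sgScramble. Every treated library was above every vehicle library. In edgeR this gave a log2 fold change of 0.54 ± 0.15 (SE), adjusted p = 0.0232. None of its coding sequence is shared with another gene at the length of a footprint. Eif2b5 (ENSMUSG00000003235, chr16:20498817-20509323, plus strand) is the catalytic epsilon subunit. Its RNA was at 74.3 to 126 (median 91.0) CPM in treated sgScramble, against 75.5, 73.9, 69.6, 73.7 and 69.1 CPM in vehicle sgScramble, and the ranges overlapped at their ends. Eif2b5 thus had a log2 fold change of 0.40 ± 0.13 (SE), adjusted p = 0.0395 in edgeR. The footprints of Eif2b5 were 28.8, 29.7, 26.9 and 31.2 CPM in treated sgScramble, against 27.1, 25.9 and 28.7 CPM in vehicle sgScramble (log2 fold change 0.10 ± 0.10, adjusted p = 0.554). For the regulatory subunits alpha (Eif2b1), beta (Eif2b2) and delta (Eif2b4), the footprint log2 fold changes of 0.29 ± 0.11, -0.04 ± 0.12 and -0.14 ± 0.15 did not pass the test, nor did their RNA. Per kilobase of coding sequence, eIF2B footprints stood to eIF2 footprints at ratios of 0.180, 0.171, 0.138 and 0.129 in treated sgScramble, against 0.191, 0.200 and 0.192 in vehicle sgScramble. No treated sgScramble library reached the lowest vehicle sgScramble library. The treated libraries numbered below 17 had 0.180 and 0.171, and those from 17 up 0.138 and 0.129. Both treated sgOgfod1 footprint libraries are also numbered from 17 up. Pseudogenes held 47.2% to 59.8% of the footprint counts of each eIF2 gene and its pseudogenes together. The part of the numbering and of the pseudogenes in this ratio was not tested. In sgOgfod1 the ratios were 0.145 and 0.131 in treated and 0.165, 0.153 and 0.169 in vehicle libraries, and the vehicle ones lay within the range of treated sgScramble. The ratio of eIF2B to eIF3 overlapped, at 0.196, 0.194, 0.179 and 0.182 in treated sgScramble, against 0.200, 0.197 and 0.190 in vehicle sgScramble. That of eIF2 to eIF3 was 1.09, 1.13, 1.30 and 1.41 in treated sgScramble, against 1.05, 0.989 and 0.994 in vehicle sgScramble. Here too the higher treated values, 1.30 and 1.41, came from the libraries numbered from 17 up. Both RNA calls were lost without any 1 of the vehicle sgScramble libraries, vehicle sgOgfod1 replicate 1 or 2 or treated sgScramble replicate 4, 6 or 7. That of Eif2b3 was also lost without vehicle sgOgfod1 replicate 3. Over the alternatives the edgeR adjusted p reached 0.360 for Eif2b5 and 0.418 for Eif2b3. The footprint call of Eif2b3 was lost without vehicle sgScramble replicate 2, 3 or 5 or treated sgScramble replicate 1 and with the term for library numbers (up to 0.0911).

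The 13 genes of eIF3, the large scaffold that joins the small subunit to the eIF4 factors, all had a positive footprint log2 fold change, with a median of 0.19. In 9 of 13 the treated and vehicle sgScramble libraries did not overlap (31.2% of all genes), and 3 passed the test. Eif3e (ENSMUSG00000022336, chr15:43250058-43282719, minus strand) had footprints at 179, 177, 162 and 195 CPM in treated sgScramble, against 124, 119.8 and 137 CPM in vehicle sgScramble. Fitted by edgeR, the log2 fold change was 0.49 ± 0.10 (SE), adjusted p = 0.00520. Its RNA overlapped, at 242 to 343 (median 276) CPM in treated sgScramble, against 248, 283, 220.3, 214 and 259 CPM in vehicle sgScramble (log2 fold change 0.19 ± 0.13, adjusted p = 0.384). Eif3a (ENSMUSG00000024991, chr19:60761117-60790658, minus strand), the largest subunit and the scaffold of the complex, had footprints at 454, 457, 435 and 472 CPM in treated sgScramble, against 359.7, 342 and 332 CPM in vehicle sgScramble. For Eif3a edgeR gave a log2 fold change of 0.40 ± 0.10 (SE), adjusted p = 0.0102. All treated values were above all vehicle values. The RNA was 346 to 410.3 (median 390.3) CPM in treated sgScramble, against 384, 432, 386, 398 and 408 CPM in vehicle sgScramble (log2 fold change -0.09 ± 0.12, adjusted p = 0.686). Eif3h (ENSMUSG00000022312, chr15:51786558-51865523, minus strand), which carries an MPN domain, had footprints at 125, 123, 118 and 125 CPM in treated sgScramble, against 93.8, 98.5 and 109 CPM in vehicle sgScramble. This corresponds to a log2 fold change of 0.29 ± 0.09 (SE), adjusted p = 0.0400 in edgeR. The calls of Eif3a and Eif3e held under all 19 alternatives tried, including each left-out library and the term for library numbers. That of Eif3h was lost under 11 of 19, among them leaving out vehicle sgScramble replicate 2 or 3, vehicle sgOgfod1 replicate 3 or any treated sgScramble library (edgeR adjusted p up to 0.161). In RNA, Eif3b (ENSMUSG00000056076, chr5:140419328-140443360, plus strand), a core subunit with an RNA recognition motif, was the only eIF3 gene called by edgeR. It was at 321 to 579 (median 381) CPM in treated sgScramble, against 322, 277, 274, 323 and 261 CPM in vehicle sgScramble. The log2 fold change was 0.48 ± 0.14 (SE), adjusted p = 0.0287 by edgeR. Its footprints were 224, 223, 189.7 and 197 CPM in treated sgScramble, against 194, 189 and 191 CPM in vehicle sgScramble (log2 fold change 0.12 ± 0.09, adjusted p = 0.390). Its RNA call was lost without vehicle sgScramble replicate 2, 3 or 5 or treated sgScramble replicate 4 or 6 (adjusted p up to 0.163 over the alternatives). The other footprint log2 fold changes ranged from 0.02 for Eif3d, a subunit that can bind certain caps itself, to 0.32 for Eif3m, and none passed.

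**Figure D2:**
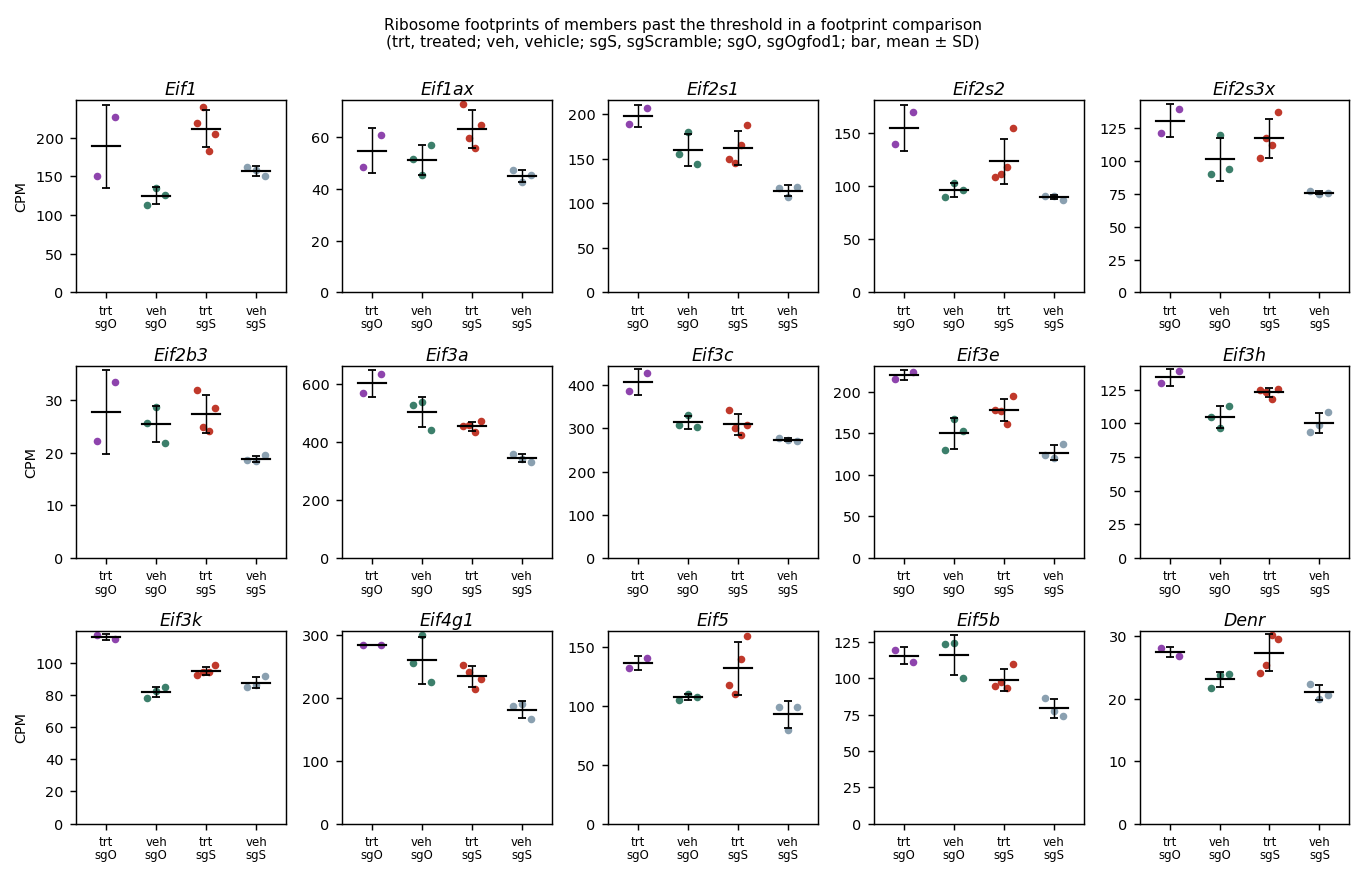
Footprint CPM of each library (points) with the group mean and SD (bars), for the members called in a footprint comparison, in treated sgOgfod1 (n = 2), vehicle sgOgfod1 (n = 3), treated sgScramble (n = 4) and vehicle sgScramble (n = 3). Eif2s3x spans 102 to 138 CPM in treated sgScramble, against 74.9 to 77.6 CPM in vehicle sgScramble, and Eif3k 115 to 117 CPM in treated sgOgfod1, against 78.2 to 84.9 CPM in vehicle sgOgfod1.

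In the eIF4 group 1 of 9 genes passed in footprints, where all 9 were positive with a median log2 fold change of 0.26. In RNA 7 of 9 were positive with a median of 0.075, and 2 had an unadjusted p below 0.05 in edgeR but 0 passed. Eif4g1 (ENSMUSG00000045983, chr16:20668313-20692884, plus strand) is the scaffold that holds the cap-binding protein, the helicase and eIF3 together. Eif4g1 footprints were at 252, 239.9, 214 and 229 CPM in treated sgScramble, against 186, 190.2 and 165 CPM in vehicle sgScramble. By edgeR's test the log2 fold change was 0.37 ± 0.11 (SE), adjusted p = 0.0267. The groups did not overlap, but the call was lost without vehicle sgScramble replicate 2, 3 or 5 or treated sgScramble replicate 1 or 2 (adjusted p up to 0.119). Eif4g1 RNA was 71.1 to 275 (median 227) CPM in treated sgScramble, against 194, 191, 193, 229 and 194 CPM in vehicle sgScramble, with the lowest value in the replicate 4 library that stood apart. Eif4a1, the main RNA helicase of the group, had footprints at 1175, 1212, 1130.1 and 1109.9 CPM in treated sgScramble, against 999, 902 and 991 CPM in vehicle sgScramble. They were apart in every library, but the log2 fold change of 0.26 ± 0.09 did not pass (edgeR adjusted p = 0.0602). Footprints of Eif4e, which binds the cap, were at 65.2, 83.9, 72.7 and 73.9 CPM in treated sgScramble, against 67.9, 53.2 and 57.4 CPM in vehicle sgScramble. The groups overlapped (log2 fold change 0.31 ± 0.12, adjusted p = 0.0952). The largest footprint log2 fold change of any member after sgScramble treatment, that of the second helicase Eif4a2, was 0.91 ± 0.33 and did not pass (edgeR adjusted p = 0.0942). The values were 239, 425, 516 and 432 CPM in treated sgScramble, against 205, 184 and 254 CPM in vehicle sgScramble. The 5 small RNA genes that lie within its exons summed to 204, 390.3, 491 and 396 footprint CPM in the same treated libraries, against 165, 150.0 and 218 CPM in the vehicle libraries. Their part in the Eif4a2 values was not tested. Eif4b and Eif4h, which stimulate the helicase, Eif4e2, a cap-binding relative of eIF4E, and Eif4g2 and Eif4g3, relatives of eIF4G, had footprint log2 fold changes between 0.04 and 0.33, none past the threshold.

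Among the factors that set scanning and the joining of subunits, Eif1, Eif1ax, Eif5 and Eif5b had more footprints after treatment, and Eif1, Eif5 and Eif6 more RNA. Eif1 (ENSMUSG00000035530, chr11:100319885-100322096, plus strand) guards against start codons in poor context, and its own start lacks the favoured bases, as shown above. Its RNA was at 291 to 843 (median 390.1) CPM in treated sgScramble, against 266, 310.3, 236, 255 and 271 CPM in vehicle sgScramble. Its log2 fold change came to 0.68 ± 0.20 (SE), adjusted p = 0.0302 in edgeR. Eif1 footprints were at 219, 239.9, 183 and 204 CPM in treated sgScramble, against 162, 159 and 149.7 CPM in vehicle sgScramble, apart in all libraries. In edgeR this gave a log2 fold change of 0.43 ± 0.13 (SE), adjusted p = 0.0325. Eif1ax (ENSMUSG00000067194, chrX:159372178-159389928, plus strand) encodes eIF1A, which works with eIF1 in scanning. Eif1ax footprints were at 72.7, 59.6, 55.8 and 64.6 CPM in treated sgScramble, against 47.3, 42.6 and 45.2 CPM in vehicle sgScramble. Eif1ax thus had a log2 fold change of 0.49 ± 0.12 (SE), adjusted p = 0.0115 in edgeR. The groups of Eif1ax did not overlap, and the call was lost only without vehicle sgScramble replicate 3 (adjusted p = 0.0686) among 19 alternatives. Eif5 (ENSMUSG00000021282, chr12:111538016-111546752, plus strand), which triggers GTP hydrolysis on eIF2, had RNA at 789.8 to 1780.1 (median 1062) CPM in treated sgScramble, against 699, 888, 770.2, 774 and 872 CPM in vehicle sgScramble. Fitted by edgeR, the log2 fold change was 0.48 ± 0.15 (SE), adjusted p = 0.0369. Its footprints were at 117, 109.8, 139.6 and 159 CPM in treated sgScramble, against 99.2, 79.6 and 99.2 CPM in vehicle sgScramble, with no overlap. For Eif5 edgeR gave a log2 fold change of 0.50 ± 0.12 (SE), adjusted p = 0.0122. Eif5b (ENSMUSG00000026083, chr1:37998010-38055579, plus strand) is the GTPase of subunit joining. Eif5b footprints were at 94.8, 97.7, 93.6 and 110.0 CPM in treated sgScramble, against 86.3, 77.2 and 74.3 CPM in vehicle sgScramble. This corresponds to a log2 fold change of 0.32 ± 0.11 (SE), adjusted p = 0.0481 in edgeR. This call was lost under 13 of 19 alternatives (up to 0.178), among them leaving out any 1 sgScramble library or vehicle sgOgfod1 replicate 3. Eif6 (ENSMUSG00000027613, chr2:155819832-155826925, minus strand), which keeps free large subunits from joining, had RNA at 72.9 to 175 (median 99.7) CPM in treated sgScramble, against 84.4, 66.4, 75.1, 72.2 and 60.7 CPM in vehicle sgScramble. The log2 fold change was 0.59 ± 0.18 (SE), adjusted p = 0.0315 by edgeR. Footprints of Eif6 were 41.5, 45.3, 37.1 and 39.9 CPM in treated sgScramble, against 38.3, 44.5 and 39.8 CPM in vehicle sgScramble, a log2 fold change of 0.00 ± 0.11. In the 2 treated sgScramble libraries numbered below 17, RNA was 291 and 319 CPM for Eif1 and 790 and 918 CPM for Eif5. Both overlapped the vehicle values, and the libraries from 17 up had means of 476 and 1227 CPM. In the same 2 libraries Eif6 RNA, at 92.3 and 105 CPM, was above all vehicle values, as was that of Eif2b3, Eif2b5, Eif3b and Denr. The RNA calls depended on single libraries. That of Eif1 was lost without vehicle sgScramble replicate 1, 3, 4 or 5 (adjusted p up to 0.397 over the alternatives). That of Eif5 was lost without any vehicle sgScramble library or treated replicate 4, 6 or 7 (up to 0.532). That of Eif6 was lost without vehicle sgScramble replicate 2, 3, 4 or 5 or treated replicate 4 or 6 (up to 0.0942). The footprint call of Eif1 was lost without vehicle sgScramble replicate 2, 3 or 5 or treated sgScramble replicate 1 or 2 (up to 0.110). The footprint call of Eif5 was lost without vehicle sgScramble replicate 3 or with the term for library numbers (up to 0.138).

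Of the 4 genes of neighbouring function 1 passed. Denr (ENSMUSG00000023106, chr5:123907175-123928835, plus strand) acts with its partner Mcts1 in releasing post-termination small subunits and in reinitiation. Its RNA was at 150.4 to 359 (median 168) CPM in treated sgScramble, against 117, 133, 109, 120.5 and 128 CPM in vehicle sgScramble. By edgeR's test the log2 fold change was 0.67 ± 0.19 (SE), adjusted p = 0.0199. Every treated library lay above every vehicle library, and the treated maximum came from the replicate 4 library that stood apart. Denr footprints were at 24.2, 25.5, 30.2 and 29.6 CPM in treated sgScramble, against 22.4, 20.0 and 20.7 CPM in vehicle sgScramble, also without overlap. Its log2 fold change came to 0.38 ± 0.11 (SE), adjusted p = 0.0338 in edgeR. The RNA call was lost without vehicle sgScramble replicate 1 or 3 (adjusted p up to 0.209 over the alternatives). The footprint call was lost without any vehicle sgScramble library or treated replicate 3 or 5, with the term for library numbers, with no filter and with upper-quartile scaling (up to 0.227). Mcts1 had log2 fold changes of -0.08 ± 0.13 in RNA and 0.13 ± 0.11 in footprints. For Eif2a, which can deliver initiator tRNA without being part of eIF2, they were 0.04 ± 0.11 and 0.25 ± 0.13. For Pabpc1, the poly(A) tail binding protein, they were -0.14 ± 0.16 and 0.07 ± 0.17, none past the threshold.

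**Figure D3:**
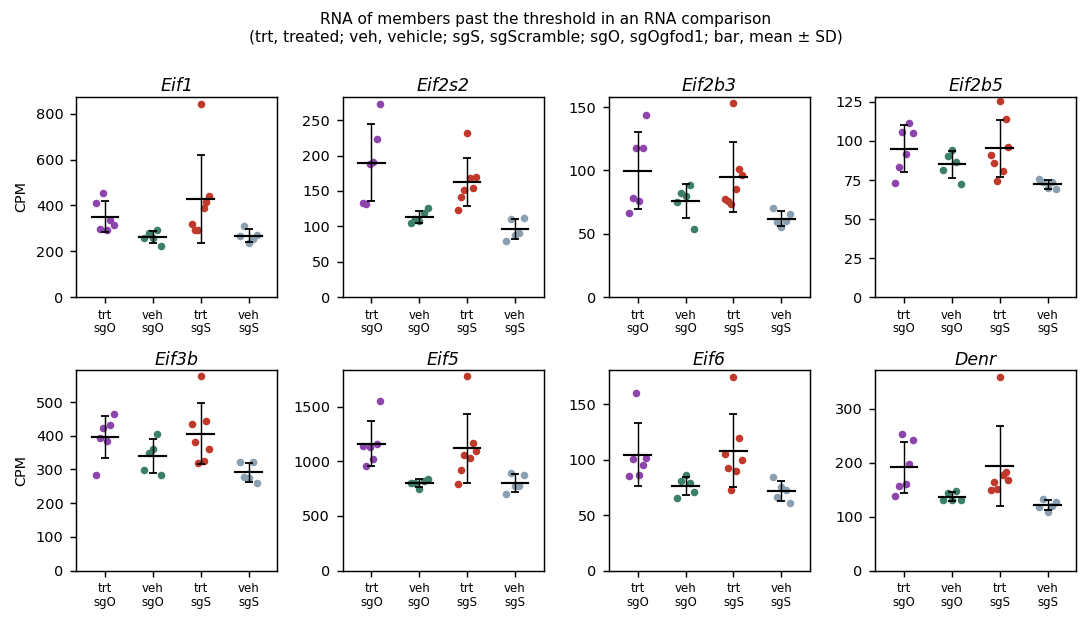
RNA CPM of each library (points) with the group mean and SD (bars), for the 8 members called in an RNA comparison, in treated sgOgfod1 (n = 6), vehicle sgOgfod1 (n = 5), treated sgScramble (n = 7) and vehicle sgScramble (n = 5). In Denr, Eif1 and Eif5 the highest treated sgScramble point, at 359, 843 and 1780.1 CPM, is replicate 4.

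The same treatment of sgOgfod1 cells gave 2 members called higher in RNA and 5 in footprints, with 0 lower by edgeR in either. Of all genes tested, 5.69% were called higher in RNA and 4.65% in footprints. These comparisons rest on fewer libraries than those in sgScramble, and in footprints on 2 treated mice, both with library numbers from 17 up, so that the numbering and the treatment cannot be told apart there. In RNA of treated sgOgfod1, 8 of 12 macrophage and 8 of 11 neutrophil markers were called higher than in vehicle sgOgfod1, while 6 of 8 erythroid and 3 of 9 leukemia markers were called lower. In footprints 4 of 9 tested macrophage markers were called higher and 1 lower, and 4 of 11 neutrophil markers higher and 0 lower. Among the 9 leukemia markers 1 was called higher in footprints and 3 lower. The part of cell makeup was not tested here either. Eif2s2 RNA was at 131 to 273 (median 189) CPM in treated sgOgfod1, against 105, 110.4, 107, 119 and 125 CPM in vehicle sgOgfod1. In edgeR this gave a log2 fold change of 0.74 ± 0.17 (SE), adjusted p = 0.00763. Footprints of Eif2s2 were at 139.5 and 170.4 CPM in treated sgOgfod1, against 89.8, 103 and 96.7 CPM in vehicle sgOgfod1. Eif2s2 thus had a log2 fold change of 0.69 ± 0.14 (SE), adjusted p = 0.00821 in edgeR. Both of its comparisons were free of overlap, as in sgScramble, whose vehicle libraries are a separate set. Eif5 RNA was at 961 to 1556 (median 1135) CPM in treated sgOgfod1, against 802, 806, 748, 818 and 835 CPM in vehicle sgOgfod1. Fitted by edgeR, the log2 fold change was 0.53 ± 0.16 (SE), adjusted p = 0.0323. Its footprints were at 132 and 141 CPM in treated sgOgfod1, against 105, 109.6 and 107 CPM in vehicle sgOgfod1, which gave a log2 fold change of 0.35 ± 0.14 (adjusted p = 0.158). Among eIF3 genes, 12 of 13 had a positive footprint log2 fold change (median 0.33), 10 of 13 did not overlap between groups (36.7% of all genes), and 3 passed. Eif3e footprints were at 216 and 224 CPM in treated sgOgfod1, against 129.8, 167 and 153 CPM in vehicle sgOgfod1. For Eif3e edgeR gave a log2 fold change of 0.55 ± 0.12 (SE), adjusted p = 0.0108. Eif3k (ENSMUSG00000053565, chr7:28971372-28981864, minus strand) is a small subunit at the edge of the complex. Eif3k footprints were at 117 and 115 CPM in treated sgOgfod1, against 78.2, 82.7 and 84.9 CPM in vehicle sgOgfod1. This corresponds to a log2 fold change of 0.50 ± 0.10 (SE), adjusted p = 0.00631 in edgeR. In sgScramble cells they were at 92.8, 94.4, 94.7 and 98.9 CPM in treated sgScramble, against 85.0, 86.5 and 91.9 CPM in vehicle sgScramble (log2 fold change 0.12 ± 0.08, adjusted p = 0.371). The treated sgOgfod1 libraries were thus the highest of all 4 groups for Eif3k, but the difference between the 2 treatment effects did not pass (log2 0.39 ± 0.13, edgeR adjusted p = 0.381). Eif3c (ENSMUSG00000030738, chr7:126546455-126566411, minus strand) is a core subunit that contacts eIF1 and eIF5. It was at 387 and 429 CPM in treated sgOgfod1, against 308, 330.3 and 303 CPM in vehicle sgOgfod1. The log2 fold change was 0.38 ± 0.11 (SE), adjusted p = 0.0393 by edgeR. Eif1 footprints were at 151 and 226 CPM in treated sgOgfod1, against 113, 135 and 126 CPM in vehicle sgOgfod1. By edgeR's test the log2 fold change was 0.60 ± 0.15 (SE), adjusted p = 0.0227. The eIF2B genes were positive in 5 of 5 in RNA (median 0.40) and 5 of 5 in footprints (median 0.15), where 49.8% and 48.3% of all genes were positive, and 0 passed in edgeR in either assay. Members whose treatment effect differed between the genotypes numbered 0 in RNA and 0 in footprints by edgeR and DESeq2 alike, and of all genes 0% and 0.0656% were called. At an unadjusted p below 0.05 there were 0 and 2 members, against 4.54% and 9.29% of all genes. The RNA count came to 1 without any 1 vehicle sgOgfod1 library or treated sgOgfod1 replicate 6, to 4 without treated sgOgfod1 replicate 4 (2 of them lower) and to 9 without treated sgScramble replicate 4 (2 lower). Without both libraries that stood apart it was 6 (1 lower). With the term for library numbers both RNA calls were lost (adjusted p = 0.0587 for Eif2s2 and up to 0.156 for Eif5 over the alternatives), and Pabpc1 alone was called, as lower. Leaving out 1 of the 2 treated sgOgfod1 mice leaves a group of 1 without a spread of its own. No footprint call of Eif2s2 or Eif3e is therefore read from those fits. Over the 19 alternatives their footprint log2 fold changes ranged from 0.37 to 0.83 for Eif2s2 and from 0.46 to 0.64 for Eif3e. The footprint count came to 3 without vehicle sgOgfod1 replicate 3 or 5 and to 0 with the term for library numbers. Of these footprint calls, that of Eif3c was lost without any vehicle sgScramble library and without vehicle sgOgfod1 replicate 3 or 5. It was also lost with no filter, upper-quartile scaling, a replicate block and the term for library numbers. That of Eif1 was lost without vehicle sgOgfod1 replicate 3 or 5, with a replicate block and with that term. The log2 fold change of Eif1 was 0.28 to 0.87 over all 19 alternatives.

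Translation efficiency, the footprint level relative to the RNA level of the same mouse, was tested over the 12 mice with both libraries. In sgScramble 2 members were called higher by edgeR after treatment and 0 lower, where 0.419% of 28606 genes tested were called higher and 0.576% of the protein-coding ones. For Eif3a, log2 translation efficiency (footprint CPM over RNA CPM) was 0.21, 0.40, 0.31 and 0.27 in treated sgScramble, against -0.26, -0.18 and -0.30 in vehicle sgScramble. Its log2 fold change came to 0.59 ± 0.12 (SE), adjusted p = 0.0251 in edgeR. Every treated mouse was above 0 and every vehicle mouse below it. For Eif2s3x log2 translation efficiency was 2.61, 3.02, 3.21 and 3.35 in treated sgScramble, against 2.15, 2.32 and 2.57 in vehicle sgScramble, and the treated values again all exceeded the vehicle values. In edgeR this gave a log2 fold change of 0.75 ± 0.17 (SE), adjusted p = 0.0376. Eif2s2, by contrast, whose RNA and footprints both rose, had a log2 fold change in translation efficiency of -0.01 ± 0.13 (adjusted p = 1). Eif6 and Eif3b, called higher in RNA alone, had -0.37 ± 0.14 (adjusted p = 0.251) and -0.26 ± 0.14 (adjusted p = 0.520). In sgOgfod1 edgeR and DESeq2 each called 0 members, where 0.0664% of all genes were called higher by edgeR. At an unadjusted p below 0.05 there were 4 members, against 5.32% of all genes. Both sgScramble calls were lost without vehicle sgScramble replicate 2, 3 or 5, vehicle sgOgfod1 replicate 4 or treated sgScramble replicate 2, where the count came to 0. That of Eif3a was also lost without vehicle sgOgfod1 replicate 5, treated sgOgfod1 replicate 4 or any other treated sgScramble mouse (adjusted p up to 0.198 for Eif3a and 0.191 for Eif2s3x). For the same comparison DESeq2 called 10 members, where it called 2.05% of all genes higher, limma on log2 ratios and edgeR without the mouse block each called 0, and upper-quartile scaling lost the call of Eif3a.

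Under vehicle, sgOgfod1 cells had more footprints than sgScramble cells of 4 members (10.0% of the 40, where 0.908% of all genes tested were called higher) and fewer of 0. In RNA edgeR and DESeq2 called 0 members, where 0.0978% of all genes were called higher, and 2 had an unadjusted p below 0.05, against 4.62% of all genes. Eif5b footprints were at 124, 124 and 100.0 CPM in vehicle sgOgfod1, against 86.3, 77.2 and 74.3 CPM in vehicle sgScramble. Eif5b thus had a log2 fold change of 0.55 ± 0.11 (SE), adjusted p = 0.0190 in edgeR. Its RNA was at 106, 92.6, 98.4, 95.8 and 110.0 CPM in vehicle sgOgfod1, against 109, 124, 106, 127 and 125 CPM in vehicle sgScramble, a difference of the other sign that did not pass the test (log2 -0.23 ± 0.10, adjusted p = 1). Its translation efficiency had a log2 fold change of 0.74 ± 0.14 (adjusted p = 0.0622). Eif3a footprints were at 526, 536 and 442 CPM in vehicle sgOgfod1, against 359.7, 342 and 332 CPM in vehicle sgScramble. Fitted by edgeR, the log2 fold change was 0.54 ± 0.10 (SE), adjusted p = 0.0124. Eif4g1 footprints were at 255, 299 and 224 CPM in vehicle sgOgfod1, against 186, 190.2 and 165 CPM in vehicle sgScramble. For Eif4g1 edgeR gave a log2 fold change of 0.52 ± 0.11 (SE), adjusted p = 0.0268. Eif2s1 footprints were at 156, 179.8 and 144 CPM in vehicle sgOgfod1, against 117, 107 and 118 CPM in vehicle sgScramble. This corresponds to a log2 fold change of 0.49 ± 0.12 (SE), adjusted p = 0.0425 in edgeR. In each of the 4 genes every sgOgfod1 library lay above every sgScramble library, and the groups did not overlap for 17 of the 40 members, where 26.5% of all genes tested had no overlap in either direction. Eif5b had the highest footprint level in vehicle sgOgfod1 of the 4 groups, and its treated sgOgfod1 value, 119.5 and 111 CPM, gave a treatment log2 fold change of -0.00 ± 0.12. The treatment comparison in sgScramble uses the same 3 vehicle sgScramble libraries as this one. All 4 genes were also among its 13 footprint calls, so the 2 results are not independent. The genotype difference was more positive for longer coding sequences. Spearman's rho between the footprint log2 fold change and coding length was 0.54 over the 40 members and 0.27 over 11411 protein-coding genes. This is a description, since all points share the same libraries. Eif3a, Eif4g1 and Eif5b have 4032, 4800 and 3648 coding bases, whereas Eif2s1 has 945. The count of 4 came to 2, 0 and 0 without vehicle sgScramble replicates 2, 3 and 5, and to 0 and 1 without vehicle sgOgfod1 replicates 3 and 4.

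**Figure D4:**
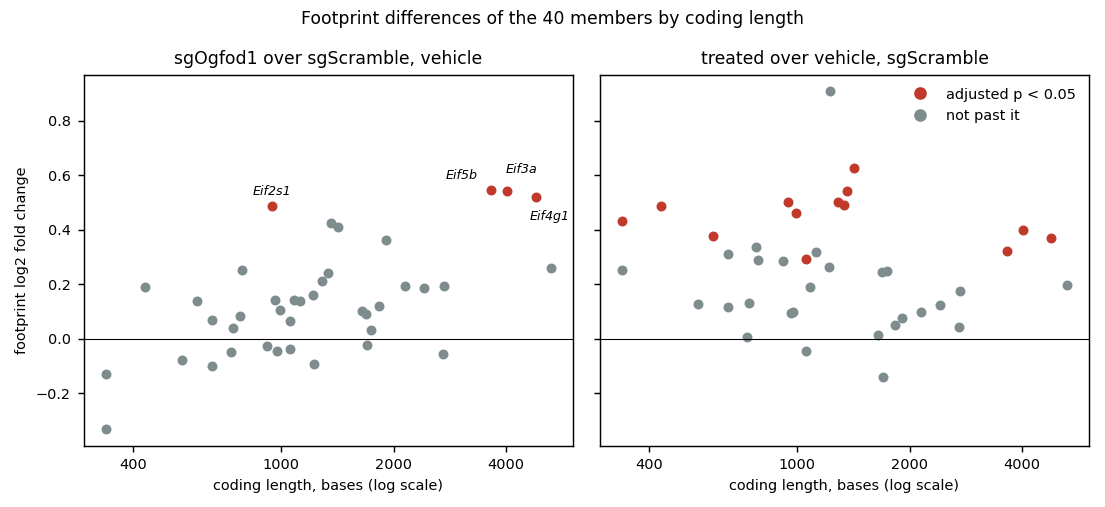
Footprint log2 fold change of each of the 40 members against its coding length in bases (log axis), for sgOgfod1 over sgScramble under vehicle (left) and treated over vehicle in sgScramble (right). Red points passed adjusted p below 0.05. On the left 3 of the 4 red points are among the longest genes (Spearman's rho 0.54), and on the right rho is -0.13.

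Between treated sgOgfod1 and treated sgScramble cells edgeR called 0 members in RNA, footprints or translation efficiency, where 0.265%, 0.59% and 0.0315% of all genes tested were called higher. DESeq2 called 0, 2 and 2 members, and its share over all genes is not given here for these comparisons. At an unadjusted p below 0.05 there were 1, 9 and 8 members, against 12.9%, 15.8% and 6.75% of all genes. Both treated sgOgfod1 footprint libraries are numbered from 17 up, whereas 2 of the 4 treated sgScramble ones are below 17. All 13 eIF3 genes had a positive footprint log2 fold change, with a median of 0.20, where the median over all genes was 0.0095. The share of all genes above 0 is not given here for this comparison. The nearest to the threshold was Eif3c, at 387 and 429 CPM in treated sgOgfod1, against 342, 301, 286 and 308 CPM in treated sgScramble (log2 0.40 ± 0.10, edgeR adjusted p = 0.0579). Next was Eif3a, at 569 and 634 CPM in treated sgOgfod1, against 454, 457, 435 and 472 CPM in treated sgScramble (log2 0.40 ± 0.11, adjusted p = 0.0639). In both genes the groups did not overlap, but the share of all genes without overlap was not taken for this comparison of 2 against 4 libraries.

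Levels per kilobase show how evenly the subunits of one complex were covered by ribosomes. In treated sgScramble the 13 eIF3 genes had 75.5 footprint CPM per kilobase of coding sequence for the lowest subunit, 145.5 for the highest and a 1.93-fold range. In vehicle sgScramble they lay between 69.7 footprint CPM per kilobase of coding sequence for Eif3l and 134 for Eif3k, a 1.92-fold range around a median of 82.4. The RNA of the same genes per kilobase of exons in vehicle sgScramble spanned a 10.1-fold range, from 8.65 for Eif3j1, a loosely bound subunit, to 87.1 for Eif3b. The coefficient of variation over the 13 subunits was 19.4% in footprints and 52.6% in RNA. The 2 lengths differ in kind, since RNA was divided by all annotated exons of a gene and footprints by 1 coding sequence. For Eif3j1 these were 5830 and 783 bases. The part of these lengths in the wider RNA range was not tested. In eIF2 the footprint range was 2.24-fold and the RNA range 14.4-fold, and both were lowest for Eif2s3x, at 53.7 ± 0.990 footprint and 3.78 ± 0.514 RNA CPM per kilobase (SD, n = 3 and 5). The eIF2B genes had 9.16 to 26.7 footprint CPM per kilobase, with a 2.92-fold range, all below the lowest eIF2 subunit at 53.7. The eIF4 genes, whose products do not form one complex of fixed makeup, ranged over 65.8-fold, from 12.0 for Eif4g3 to 791 ± 44.4 for Eif4a1 (SD, n = 3). The values were 91.4 for the cap-binding Eif4e and 37.6 for Eif4g1. Eif4g2 stood out in the other direction, with the highest RNA of the eIF4 genes at 227 CPM per kilobase of exons and 79.8 footprint CPM per kilobase. The order of subunits with closely shared copies, Eif3j1, Eif4a1 and Eif2s3x among them, also carries how their reads were assigned.

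**Figure D5:**
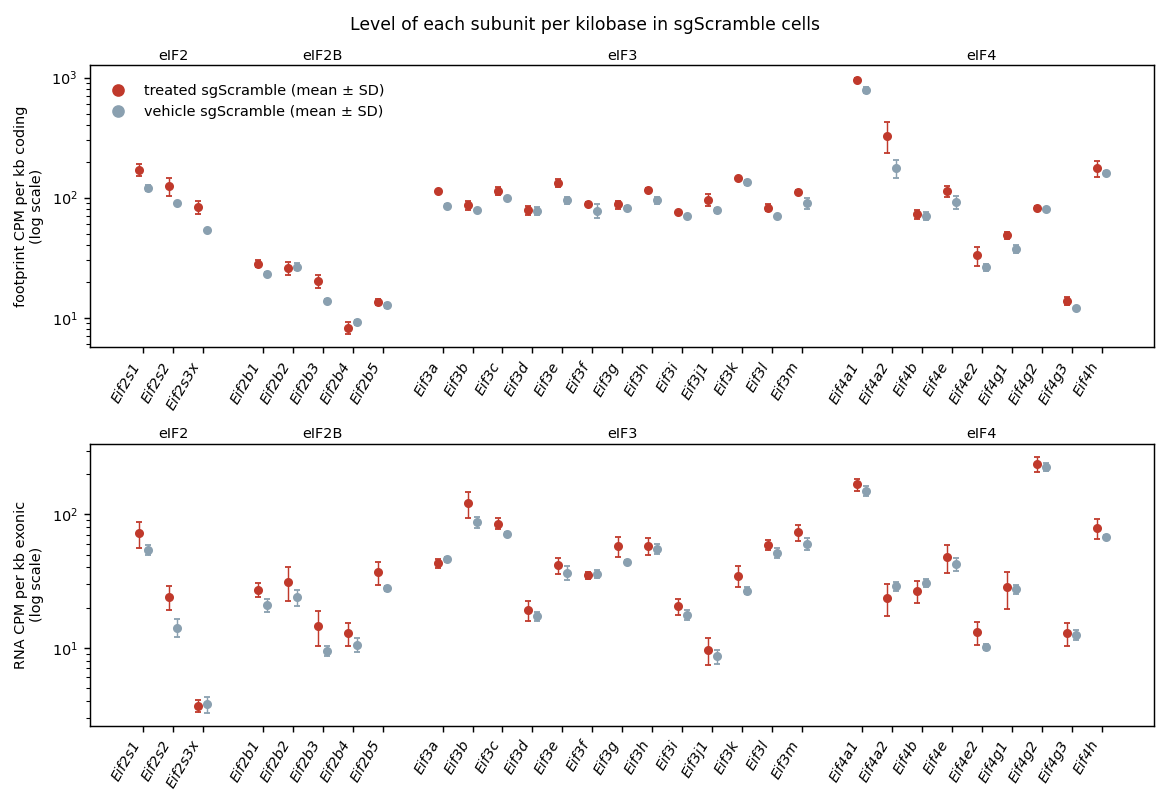
Mean level per kilobase, with SD, of each eIF2, eIF2B, eIF3 and eIF4 gene in treated sgScramble (left point of each pair) and vehicle sgScramble, as footprint CPM per kilobase of coding sequence (top) and RNA CPM per kilobase of exons (bottom), on log axes. The eIF3 footprint points lie within a 1.92-fold band in vehicle cells, the RNA points within a 10.1-fold band.

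Short footprints of several members cannot be placed on one gene, because processed pseudogenes and paralogs hold the same sequence. Of all 28-base windows of the coding sequence, 100% of Eif3j1, 99.4% of Eif4a1, 99.0% of Eif1, 95.0% of Eif2s3x, 85.4% of Eif2s2, 61.9% of Eif2s1, 50.8% of Eif3e and 27.6% of Eif5 occur in another annotated gene. The share was 0% for Eif3a, Denr and every eIF2B gene. Of the footprint counts of a gene and its pseudogenes together, 87.9% lay on the pseudogenes for Eif1, 59.8% for Eif2s1, 55.2% for Eif2s3x, 55.0% for Eif3e, 47.2% for Eif2s2 and 29.3% for Eif5. In RNA the share was at most 6.56% for any member. Eif3j1 and its near-identical copy Eif3j2 had equal footprints, at a ratio of 0.979 to 1.03 in 12 libraries, but RNA at a ratio of 15.7 to 29.7 in 23 libraries. The X-linked Eif2s3x had 0.0695 to 0.139 times the RNA of its Y-linked copy Eif2s3y and 2.30 to 3.33 times its footprints. The part of shared reads in its footprint and translation efficiency calls was not tested. How reads with several matches were counted is not given in the sources used here. In footprints after treatment of sgScramble, 7 of the 13 members with 25% or more of their windows shared were called (median log2 fold change 0.43). Of the 27 under 25% it was 6 (median 0.17), and of the 11 with no shared window 3 (median 0.25), namely Eif2b3, Eif3a and Denr. With the counts of each member and its pseudogenes summed, an alternative chosen after seeing the data, all of the footprint calls of sgScramble treatment held but that of Eif5b. Genes on the opposite strand overlap 43.3% of the exonic bases of Eif3d and 16.9% of those of Eif5b, and whether counting used the strand is not given in the sources used here.

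Among 32 other genes of initiation and its control, chosen as the wider pathway, treatment of sgScramble gave 4 higher calls in RNA by edgeR, where 8.6% of all genes and 11.1% of the protein-coding ones were called higher, and 1 lower call, where 4.34% of all genes were called lower. The median log2 fold change was 0.07 in RNA and 0.08 in footprints. The RNA of Eif4ebp1, a repressor of eIF4E, was at 47.8 to 224 (median 69.1) CPM in treated sgScramble, against 45.3, 47.3, 46.1, 46.5 and 45.7 CPM in vehicle sgScramble. The log2 fold change was 0.95 ± 0.28 (SE), adjusted p = 0.0256 by edgeR. The RNA of Ppp1r15a, which directs a phosphatase to eIF2 alpha, was at 3.14 to 13.4 (median 4.78) CPM in treated sgScramble, against 2.83, 2.28, 2.07, 3.24 and 1.85 CPM in vehicle sgScramble. By edgeR's test the log2 fold change was 1.30 ± 0.30 (SE), adjusted p = 0.00621. Eif2d and Eif5a were the other RNA calls upward, with log2 fold changes of 0.52 ± 0.13 and 0.73 ± 0.19 (adjusted p = 0.00818 and 0.0143). Pdcd4, an inhibitor of the eIF4A helicase, was lower in both assays and both genotypes. Its footprints were at 178, 195, 178 and 165 CPM in treated sgScramble, against 302, 293 and 291 CPM in vehicle sgScramble. Its log2 fold change came to -0.72 ± 0.12 (SE), adjusted p = 0.00132 in edgeR. In sgOgfod1 cells they were at 185 and 264 CPM in treated sgOgfod1, against 384, 462 and 343 CPM in vehicle sgOgfod1. In edgeR this gave a log2 fold change of -0.82 ± 0.15 (SE), adjusted p = 0.00470. In footprints no treated library of either genotype reached the Pdcd4 level of a vehicle library of the same genotype. The RNA log2 fold changes of Pdcd4 were -0.77 ± 0.22 (SE), adjusted p = 0.0216 in sgScramble and -1.003 ± 0.23 (SE), adjusted p = 0.00682 in sgOgfod1. Mknk2, a kinase of eIF4E, had fewer footprints, at 20.1, 14.7, 21.9 and 23.9 CPM in treated sgScramble, against 27.2, 32.7 and 28.3 CPM in vehicle sgScramble. Mknk2 thus had a log2 fold change of -0.55 ± 0.14 (SE), adjusted p = 0.0179 in edgeR. Its log2 fold change was 0.03 ± 0.24 in RNA (adjusted p = 0.963) and -0.86 ± 0.16 (SE), adjusted p = 0.0143 in translation efficiency. The remaining footprint calls were upward, for Eif2s3y (0.38 ± 0.10, adjusted p = 0.0185) and Bzw1 (0.35 ± 0.10, adjusted p = 0.0267) in sgScramble and for Eif1ad in sgOgfod1 (0.54 ± 0.16, adjusted p = 0.0415).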

How the data were processed

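RNA was measured in 23 libraries and ribosome footprints in 12. Both deposited tables hold raw counts per gene made by the authors; the submitters' processing notes name cutadapt, Bowtie2, STAR, SAMtools and featureCounts and the builds GRCm38 and mm10, without versions, and the treatment of reads with several matches and of strand is not given in the sources used here. Ensembl identifiers were named from GENCODE M21 (GRCm38), which covered 55227 of 55487 genes. Each table was filtered (filterByExpr), scaled by TMM and fitted whole in R 4.3.3 with edgeR 4.0.16 (robust quasi-likelihood test, 4 groups, Benjamini-Hochberg over all genes); CPM use the TMM library sizes. Translation efficiency was tested as assay by group terms with the mouse as a block over 12 mice. Residual degrees of freedom were 19 for RNA, 8 for footprints and 8 for translation efficiency. The steps were run on simulated counts with a fixed dispersion and no mouse effect, which do not match the spread or the pairing of the real libraries.

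A mouse's 2 libraries were matched by group and replicate number in the labels; after removal of group means each footprint library correlated best with the RNA of its own mouse in 12 of 12 (median r 0.38, 0.234 to 0.805). Same-numbered mice of different groups share only a number. Values in every library were to be given for members past the threshold in any of 15 comparisons, up to 16 by smallest adjusted p, and at least 2 of each complex; all 18 called members and some near the threshold are given, with related genes past the threshold. Members and lists were chosen with earlier results of these data known. Alternatives were DESeq2 1.42.0, limma 3.58.1 (log2 ratios, prior count 2), other filters and scalings, a replicate block, a term for library numbers from 17 up and each library left out. Shared sequence was counted in 28-base coding windows.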

Additional observations from a re-analysis of the deposited data

Results flagged for a closer look

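In 11 of 90 groups of 4 to 7 libraries examined, 1 library stood far from the others by Dixon's test, which chance alone gives in about 1 group in 20. In RNA, treated sgScramble replicate 4 was the one in 7 of the 11. It was highest for Eif2s2 at 231.3 CPM (other libraries 123.5 to 170.0), Eif2s1 at 514.0 CPM (282.5 to 371.4), Eif5 at 1780.1 CPM (789.8 to 1171), Denr at 359.4 CPM (150.4 to 182.9), Eif1 at 843.3 CPM (290.8 to 441.1) and Eif2b3 at 153.2 CPM (73.3 to 100.8), and lowest for Eif4g1 at 71.1 CPM (197 to 275). Treated sgOgfod1 replicate 3 was highest for Eif3k at 148.0 CPM (72.1 to 91.2) and Eif6 at 160.2 CPM (84.8 to 101). Eif5 was at 1556 CPM in treated sgOgfod1 replicate 6 (961 to 1158) and Eif4g1 at 229.4 CPM in vehicle sgScramble replicate 4 (191 to 194).

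The treatment effect on the translation efficiency of Eif4e had opposite signs in the 2 genotypes, but neither effect passed the test. This log2 fold change was -0.08 ± 0.16 (SE, edgeR adjusted p = 1) in sgOgfod1 and 0.43 ± 0.14 (adjusted p = 0.161) in sgScramble, a difference of -0.50. Every treated mouse was below every vehicle mouse in sgOgfod1 (2 against 3 mice) and above in sgScramble (4 against 3). The share of all genes with such separation was not taken. Values of single mice were scaled within each assay, whereas the fold changes were scaled over both assays together. The difference itself did not pass either, with an unadjusted p of 0.0272 and an adjusted p of 0.815 over all genes in edgeR.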

How the results depend on the processing

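Counts of members called moved with the processing, while no called log2 fold change of a member reversed: of 776 alternative values for 34 calls, 572 stayed called and 204 were not. For RNA after treatment in sgScramble (8 calls), 5 were called with no filter, 0 with a term for library numbers from 17 up and 1 over the mice with a footprint library; leaving out 1 library gave 1 to 13. In sgOgfod1 (2), DESeq2 gave 5, the library-number term 1 (Pabpc1, lower, and neither of the 2), the mice with a footprint library 1 and removal of the 2 libraries standing apart 6, with 1 to 9 over left-out libraries. Footprints in sgScramble (13) gave 21 with protein-coding genes alone and 6 with the term (4 to 14 over left-out libraries). In sgOgfod1 (5) they gave 8 with DESeq2, 10 with protein-coding genes alone and 0 with the term. Leaving out 1 library other than the 2 treated sgOgfod1 ones gave 3 to 7. The genotype effect in footprints gave 0 to 4 over left-out libraries under vehicle (4 called); under treatment (0 called) it gave 2 with DESeq2, 2 with protein-coding genes alone, 1 with pseudogenes summed and 0 to 2 over left-out libraries. For translation efficiency in sgScramble (2), DESeq2 gave 10, protein-coding genes alone 8, upper-quartile scaling 1 and limma on log2 ratios 0 (0 to 3 over left-out libraries). Its genotype effects (0 called) gave, under vehicle, 2 with DESeq2, 2 with no filter, 1 with protein-coding genes alone and 1 with upper-quartile scaling (0 to 1) and, under treatment, 2 with DESeq2 and 2 with protein-coding genes alone (0 to 1). The share of all genes called under these alternatives is not given here, so the counts cannot be set against a background. The exception is DESeq2 for translation efficiency in sgScramble, which called 2.05% higher. With protein-coding genes alone the members' median footprint log2 fold change in sgScramble was 0.33, against 0.26 in the main fit. The cause of these moves was not tested.

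With a replicate block over mice of the same number, which share only that number (median r of their deviations -0.02 in RNA and -0.01 in footprints), the treatment calls were 1 in RNA of sgScramble, 1 in RNA of sgOgfod1, 8 and 3 in footprints of sgScramble and sgOgfod1, and 0 for the genotype effect in footprints under vehicle. Translation efficiency without its replicate block over mice gave 0 in sgScramble. Depth limits Eif2b4 most, with 80 footprint counts in its lowest library.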

Other observations

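Coding length also ordered the RNA differences after treatment. Spearman's rho between log2 fold change and coding length was -0.62 over the 40 members in sgOgfod1 (-0.30 over 14260 protein-coding genes) and -0.41 in sgScramble (-0.26), so that shorter genes such as Eif1 and Denr had the more positive RNA values; these are descriptions over genes that share libraries. The RNA of Pabpc1, the poly(A) tail binding protein, had a log2 fold change of -0.48 ± 0.16 (SE) after treatment in sgOgfod1 that did not pass in edgeR (adjusted p = 0.0638), and of -0.14 in sgScramble.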
